A study of Homo sapiens with 16 samples.

Results

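The genes described here are 43 genes of the interferon response, followed in all 16 RNA-seq libraries of HEK-293 cells with induced HCF-2. They were chosen by gene name from a list drawn up with earlier results of these data known, by a rule that uses no measured value, and all 43 were found among the 57820 genes of the table. They comprise 6 receptors and kinases, 6 transcription factors, 3 RNA sensors, 6 regulators and 22 effectors. Of the 43, 35 reached an FPKM (fragments per length and depth, a level that can be compared between genes) above 1 in at least 1 library and were tested. The 8 that did not are all effectors (IFI44, IFI44L, IFIT2, MX2, OAS1, OAS2, OASL and SP100). Of the 35 tested members, 27 were above FPKM 1 in all 16 libraries. The other 8 (BST2, IFIT1, IRF7, IFI27, ISG20, MX1, IFIT3 and DHX58) passed through their higher libraries only, so counts over the tested members describe those genes and not the whole list.

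Interferons are secreted proteins that bind paired receptors at the cell surface. Type I interferons bind IFNAR1 and IFNAR2, interferon γ binds IFNGR1 and IFNGR2, and receptor-bound kinases of the JAK family then activate STAT proteins. STAT2 enters the nucleus with IRF9, and such complexes, like the IRF factors themselves, recognise GAAA repeats in the promoters of antiviral genes. Cytosolic RNA sensors act upstream, by starting the synthesis of interferon itself. The paper that describes these cells recalls that HCF-2 had been linked to transcription that depends on IRF1 and IRF2. Its gene set analysis of HCF-2 WT cells, day 6 against day 1, lists interferon α and γ responses among the up-regulated sets. That analysis used its own gene sets and was not repeated here. The comparison of the 2 HCF-2 proteins over time bears on how such genes behave when HCF-2 is elevated.

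Both cell lines derive from Flp-In T-REx-HEK-293, a human embryonic kidney line with 1 integration site for a transgene that doxycycline switches on. The transgene encoded Flag- and Cherry-tagged HCF-2 WT in one line and HCF-2 Fn3nc* in the other, a mutant with substitutions at the contact between its Fn3 repeats. Cells of both lines grew in tetracycline-free serum with 1 μg/ml doxycycline and were collected on day 1, 2, 4 or 6, which gives 8 groups of 2 libraries. All groups were therefore induced, and day 1 or the other cell line is the only reference. Each genotype is represented by 1 cell line, so the line and the transgene cannot be told apart. The duplicates were separate inductions as far as the study's text says, and the p-values below measure the spread between them, which may be technical.

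Libraries held 20270033 to 31006448 expected counts. The second HCF-2 WT library of day 4 stood apart, with counts in 36342 genes against 26334 to 31607 elsewhere, and it held the highest value of 5 of the 8 untested members. The 2 HCF-2 Fn3nc* libraries of day 1 were the closest pair (chi-square per gene 2.76, against 6.45 to 19.0 in the other groups). Counts of HCFC2, which combine endogenous and transgene transcripts, ranged from 893 to 1479 CPM (counts scaled to library size), and since no library lacks the transgene they do not check it. Of the 6 markers of HEK-293 cells, 5 passed the FPKM filter. The 6 together summed to 224 to 404 CPM, against 2.20 to 8.01 CPM for 10 leukocyte markers. Nearly all of the larger sum came from NEFL, CDH2 and KRT18, so the contrast rests on these genes. PAX2 had 0.341 to 1.95, LHX1 1.58 to 4.33 and NEFM 0.22 to 1.75 CPM. The leukocyte marker CD14 had 0.214 to 3.43 CPM. PAX2 passed the filter only through the HCF-2 WT library that stood apart (FPKM 1.07). PTPRC, which marks leukocytes, reached at most 0.467 CPM, and the T cell marker CD3E was at 0 in 14 of the 16 libraries.

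The GAAA repeat was searched for as GAAANNGAAA, or TTTCNNTTTC on the other strand, in RefSeq promoters of 300 bases (250 before and 50 after the start of transcription, GRCh38.p14). Overlapping matches were counted singly. Of the 43 members, 32 have a promoter in that table, and 18 of these held the motif in at least 1 of their promoters (56.25%). Among all 27305 genes of the table, 4.38% did so, and 3.57% of all 35116 promoters. A match describes letters in a window and is not evidence of binding. The following stretches, each the matches with 10 flanking bases, belong to members that are described with values below and, for contrast, to IFIT5, which was called in none of the 12 comparisons between days or lines. Capitals mark the matched letters, and the sequences are given 5′ to 3′ along the strand of the gene.
ISG15, chr1:1013374-1013409, plus strand: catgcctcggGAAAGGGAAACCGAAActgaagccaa
BST2, chr19:17405735-17405770, minus strand: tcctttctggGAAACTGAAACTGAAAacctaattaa
IFITM1, chr11:313990-314053, plus strand: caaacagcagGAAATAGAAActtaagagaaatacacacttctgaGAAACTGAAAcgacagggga
ISG20, chr15:88638937-88638966, plus strand: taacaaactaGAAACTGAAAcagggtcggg
MX1, chr21:41420559-41420588, plus strand: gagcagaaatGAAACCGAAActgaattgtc
IFIT1, chr10:89392497-89392539, plus strand: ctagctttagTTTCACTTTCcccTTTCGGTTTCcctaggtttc
IFI6, chr1:27672266-27672358, minus strand: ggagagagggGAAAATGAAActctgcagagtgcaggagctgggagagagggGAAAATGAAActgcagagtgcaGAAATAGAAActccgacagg
IFIT5, chr10:89414513-89414583, plus strand: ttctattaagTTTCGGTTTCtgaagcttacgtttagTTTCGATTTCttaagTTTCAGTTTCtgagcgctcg

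In ISG15 and in BST2 the 2 matches share a GAAA, so that 3 repeats follow each other at equal spacing. The first match begins 113 bases upstream of the start of transcription in ISG15, 130 in BST2, 69 in ISG20 and 40 in IFITM1. The repeats of IFIT1 and IFIT5 lie on the opposite strand of the gene, as TTTC. PARP9 and DTX3L, 2 genes transcribed away from each other, share 1 match in the stretch between them. IRF1, IFI35 and SAMHD1 have a promoter in the table without the motif, as have 5 of the 6 receptors and kinases, the sixth, IFNAR2, having none there. IRF2 and IRF3 also have no promoter in the table.

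The parts of the pathway differed in level per transcript length. Mean FPKM over the 16 libraries ranged from 13.7 to 45.9 among the receptors and kinases, from 1.63 to 24.9 among the transcription factors and from 4.80 to 24.5 among the regulators. The 3 RNA sensors were low, at 0.426 to 2.65 FPKM. The effectors spread widest, from 0.0256 FPKM for OAS1 to 24.3 FPKM for SAMHD1, with a median of 1.46.

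**Figure D1:**
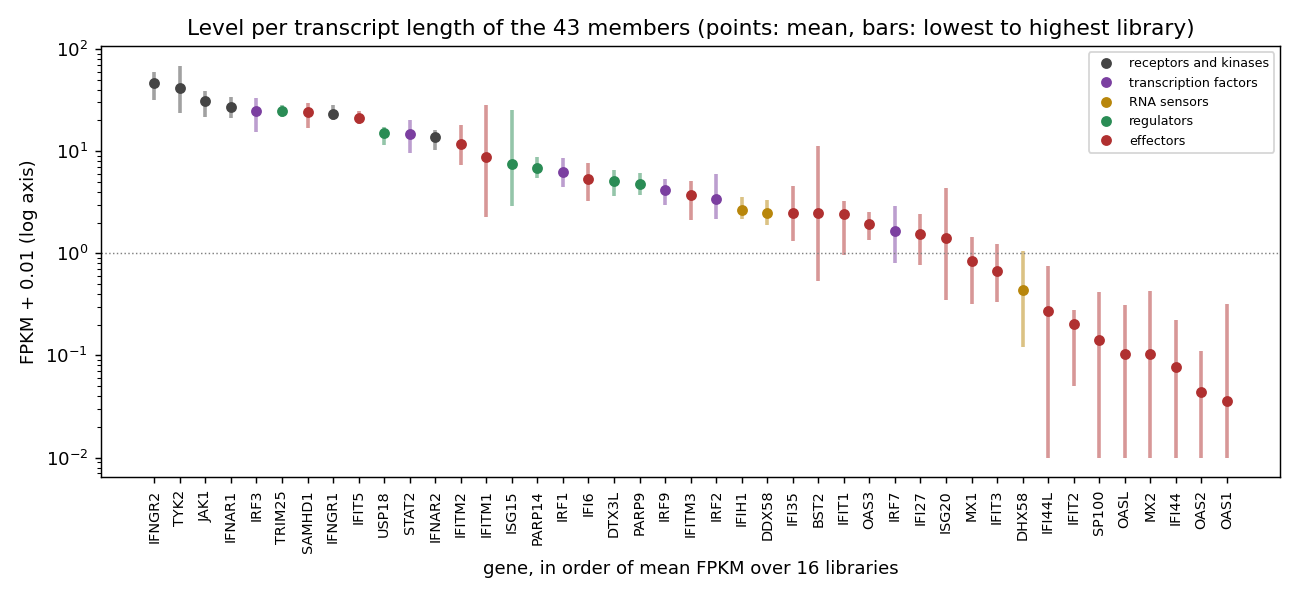
Mean level of each of the 43 members over 16 libraries, as FPKM + 0.01 on a log axis (points), with the lowest and highest library (bars) and the role group as colour; the dotted line marks FPKM 1. Receptors and kinases lie at the high end, the 8 untested effectors at the low end, and the bars are longest for BST2, ISG20 and IFITM1 among the tested genes.

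The cells held receptors for interferons but hardly any transcript of the interferons themselves. None of 21 interferon genes listed passed the FPKM filter. Together they gathered 286 counts over the 16 libraries, no more than 14 of them for any gene in a library, and 3 of the 21 had no count. IFNB1, the gene of interferon β, did not exceed 0.134 CPM. No difference in interferon transcripts was tested at this depth.

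Over time, the largest rises of HCF-2 WT cells were in antiviral effectors. Members both rose and fell in HCF-2 Fn3nc* cells, the largest falls being those of ISG15, ISG20 and MX1 from high day 1 levels. A gene was called at an adjusted p under 0.05 (quasi-likelihood test of edgeR, Benjamini-Hochberg adjustment over 18925 genes) and a log2 fold change beyond 0.5. Of the 35 tested members, 1 was higher in HCF-2 WT cells on day 2 than on day 1, 4 were higher on day 4, and 9 were higher and 1 lower on day 6. Each of the 4 libraries, left out in turn, removed the call of day 2, and the 4 calls of day 4 became 1 without the first day 1 library and 2 without the second. Among all genes tested, 0.0264% were called higher and 0.275% lower on day 2, 5.13% and 1.87% on day 4, and 13.2% and 8.04% on day 6. The 9 rises on day 6 are 25.7% of the tested members, and the median log2 fold change of the 35 was 0.17 against -0.01 over all genes. From day 2 to day 6, 8 rose and 2 fell, with 13.1% and 7.65% of all genes.

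Among the tested members, 3 rose and 3 fell in HCF-2 Fn3nc* cells by day 2, 5 rose and 4 fell by day 4, and 6 rose and 4 fell by day 6. Without the second day 1 library, the 6 calls of day 2 became 3. The shares among all genes were 4.18% higher and 10.7% lower on day 2, 8.04% and 15.4% on day 4, and 8.89% and 15.4% on day 6. The median of the members was 0.11 on day 6, against 0.00 over all genes. Day 2 served as a second reference because earlier results of these data had shown the day 1 libraries of this line to stand apart. Measured from day 2, none rose and 2 fell by day 6 (0.645% and 2.22% of all genes), and of these 2 only ISG20 was still called when any 1 of the 4 libraries was left out. By these calls, 2 members moved oppositely by day 6, ISG15 and MX1, and 1, IFITM1, rose in both lines. Of the 35, 18 were called by day 6 from day 1 in neither line. How many of all genes showed these patterns was not counted, so they only describe the members.

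**Figure D2:**
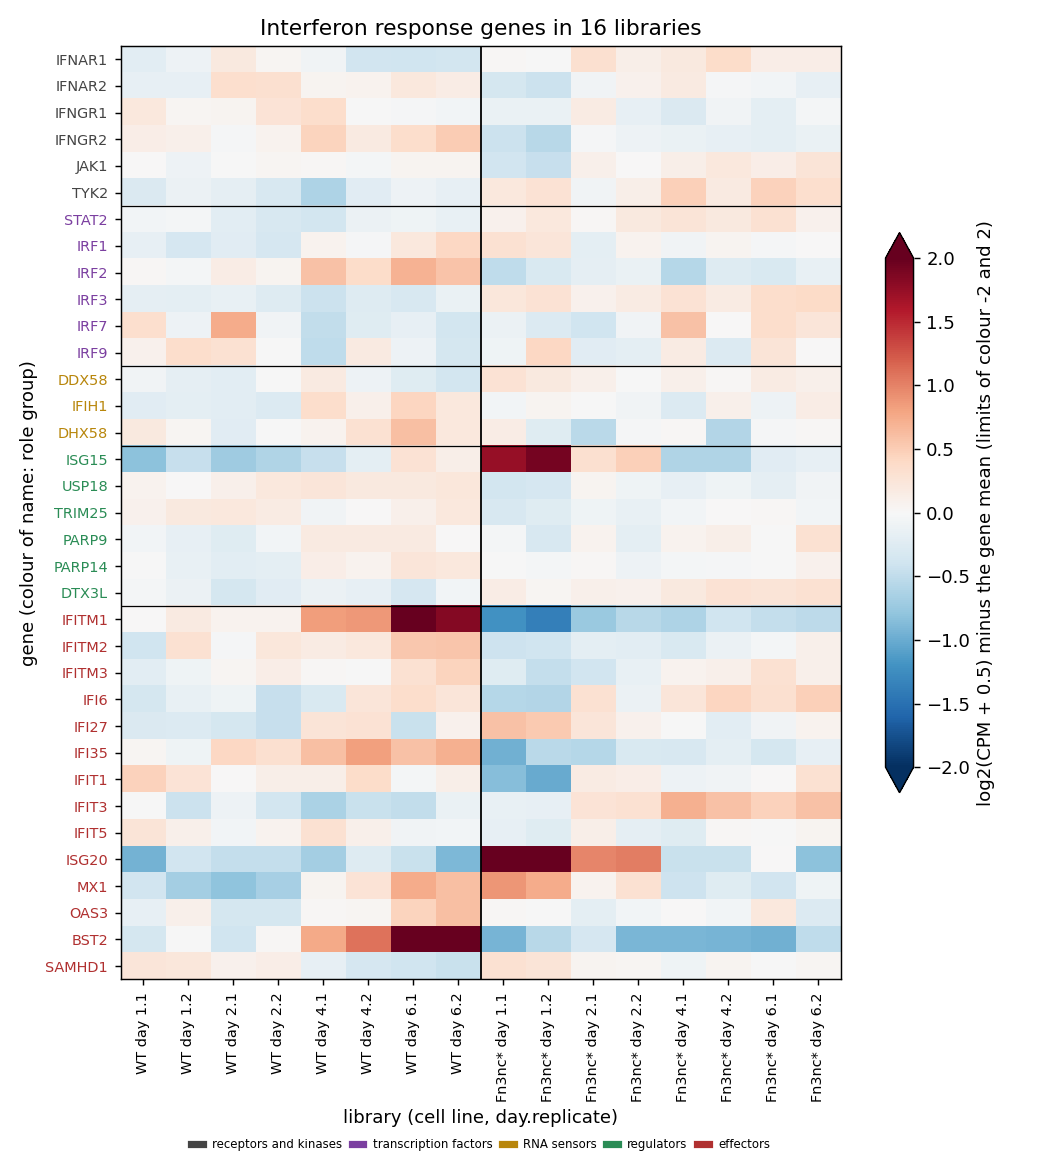
Each of the 35 tested members (rows, grouped by role) in each library (columns), as log2(CPM + 0.5) minus the mean of the gene, with colours ending at -2 and 2. BST2 and IFITM1 are darkest red in the day 6 HCF-2 WT libraries, and ISG15 and ISG20 in the day 1 HCF-2 Fn3nc* libraries, while most rows of receptors and regulators stay near white.

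Summed levels of markers of other cells changed over the same days at a low level, while single markers, called or not, went both ways. The summed level of the 10 leukocyte markers rose from between 2.20 and 3.76 CPM on day 1 to between 4.78 and 5.52 CPM on day 6 in HCF-2 WT cells. It was 6.93 to 8.01 CPM on day 1 and 3.19 to 4.70 CPM on day 6 in HCF-2 Fn3nc* cells, so in both lines the days did not overlap. The sum of 6 fibroblast markers rose from 4.79 to 6.30 CPM to 10.97 to 12.2 CPM in HCF-2 WT and from 9.04 to 9.65 CPM to 10.7 to 11.4 CPM in HCF-2 Fn3nc* cells. The 3 endothelial markers in the table summed to 0.747 to 0.816 CPM on day 1 and 0.956 to 1.87 CPM on day 6 in HCF-2 WT, and to 2.28 to 2.36 and 1.19 to 1.40 CPM in HCF-2 Fn3nc* cells. CD14 and ITGAM, with 3.10 and 3.43 CPM and 1.41 and 1.54 CPM on day 1 in HCF-2 Fn3nc* cells, led the leukocyte sum there. PTPRC and CD3E had 0 counts in the same libraries. Of the 5 tested leukocyte markers, 2 were called higher and 0 lower by day 6 in HCF-2 WT cells. In HCF-2 Fn3nc* cells 0 were called higher and 2 lower. Of all genes, 13.2% were called higher and 8.04% lower in HCF-2 WT, and 8.89% and 15.4% in HCF-2 Fn3nc* cells. In each line, 2 of the 5 had a log2 fold change above 0 by day 6. The medians of the 5 were -0.27 in HCF-2 WT and -1.01 in HCF-2 Fn3nc* cells. Of the 2 tested fibroblast markers, 1 was called higher and 0 lower in HCF-2 WT cells. In HCF-2 Fn3nc* cells 1 rose and 1 fell (log2 fold changes 1.69 and -0.69). The part of these genes in the results was not tested, and in bulk RNA fewer cells of a type and less RNA per cell cannot be told apart.

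Changes among the receptors and their kinases were within 0.75 on the log2 scale where called. None of the 6 was called in HCF-2 WT cells by day 6 from day 1, with log2 fold changes of -0.24 to 0.33. IFNAR2, the high-affinity chain of the type I receptor, was the only member called on day 2, at 31.88 and 31.51 CPM against 22.38 and 22.41 CPM on day 1 (log2 fold change 0.51, SE 0.09, adjusted p = 0.0355). The pairs lay far apart, but the call was lost on leaving out any 1 of the 4 libraries, where the adjusted p reached 0.404. IFNAR1, the other chain, had 111.35 and 100.15 CPM on day 2 and 74.11 and 75.74 CPM on day 6 in HCF-2 WT cells. It fell by 0.52 on the log2 scale between these days (SE 0.11, adjusted p = 0.00266; 0.44 without the first day 2 library, under the fold limit), and in HCF-2 Fn3nc* cells it stayed between 96.9 and 127 CPM throughout.

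JAK1, a kinase used by both type I and interferon γ receptors, was lowest in the day 1 HCF-2 Fn3nc* libraries. It measured 95.74 and 90.45 CPM there, 135.27 and 143.87 CPM on day 4 and 136.95 and 148.70 CPM on day 6. The rises were 0.55 (SE 0.07, adjusted p = 0.000108) and 0.58 (SE 0.07, adjusted p = 7.43e-05) on the log2 scale. All 8 HCF-2 WT libraries lay between 116 and 129 CPM, above the first pair and below the last. The difference in response by day 6 was -0.52 (HCF-2 WT minus HCF-2 Fn3nc*, SE 0.10, adjusted p = 0.000748).

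TYK2, the kinase that binds IFNAR1, was called higher in HCF-2 Fn3nc* cells on days 4 and 6. On day 1 it was also higher, at 48.75 and 53.1 FPKM against 29.75 and 33.13 FPKM. The log2 difference of that day, 0.46, was under the fold limit. It was estimated from scaled counts and not from these FPKM values, which lie further apart. On day 4 it had 85.12 and 69.35 CPM against 39.63 and 52.03 CPM in HCF-2 WT cells (log2 difference 0.75, SE 0.12, adjusted p = 0.000178). On day 6 it had 84.40 and 77.20 CPM against 57.13 and 54.70 CPM (0.53, SE 0.12, adjusted p = 0.00193). The lines did not overlap on day 4 or day 6, although the day 6 difference came to 0.47 at its smallest when 1 library was left out, under the fold limit. IFNAR1 was likewise higher in HCF-2 Fn3nc* cells on day 6, at 106.57 and 106.65 against 74.11 and 75.74 CPM (0.51, SE 0.10, adjusted p = 0.000634), just past the limit and under it without either HCF-2 WT library of day 6, or without the library of day 4 that stood apart (0.49).

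IFNGR2, the signalling chain of the interferon γ receptor, was lower in HCF-2 Fn3nc* cells at both ends of the course. On day 1 it measured 48.75 and 44.65 CPM against 71.98 and 70.58 CPM (log2 difference -0.61, SE 0.09, adjusted p = 2.59e-05). On day 6 it measured 57.39 and 59.82 CPM against 84.72 and 94.24 CPM (-0.61, SE 0.09, adjusted p = 3.29e-05). The lines were well separated on both days. IFNGR1, the ligand-binding chain, was called in no comparison and lay between 32.4 and 51.1 CPM over all libraries.

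Among the transcription factors, IRF1 and IRF2 were the 2 that rose in HCF-2 WT cells. IRF1, an activator of interferon and antiviral genes, had 9.81 and 8.66 CPM on day 1, 9.33 and 8.60 CPM on day 2, 11.56 and 10.83 CPM on day 4 and 12.86 and 14.84 CPM on day 6. The day 6 libraries were above all earlier ones (log2 fold change 0.56, SE 0.13, adjusted p = 0.00563). Without the second library of day 1 or of day 6 the call was lost, with an adjusted p of up to 0.0689. IRF1 in HCF-2 Fn3nc* cells did not pass the test, at 13.80 and 13.20 CPM on day 1 and 10.81 and 11.15 CPM on day 6 (-0.33, SE 0.11). On day 1 the HCF-2 Fn3nc* libraries were the higher ones (0.55, SE 0.12, adjusted p = 0.00103), although without the second HCF-2 WT library of that day the difference fell to 0.43. The responses by day 6 differed by 0.88 (SE 0.17, adjusted p = 0.000708).

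IRF2, which in many settings competes with IRF1 for the same sites, rose in HCF-2 WT cells and stayed low in HCF-2 Fn3nc* cells. In HCF-2 WT cells it had 5.80 and 5.53 CPM on day 1, 6.34 and 5.89 CPM on day 2, 8.77 and 7.44 CPM on day 4 and 9.44 and 8.69 CPM on day 6. Days 4 and 6 lay above days 1 and 2 without overlap, with a log2 fold change from day 1 of 0.52 on day 4 (SE 0.15, adjusted p = 0.0384) and 0.66 on day 6 (SE 0.15, adjusted p = 0.00471). The day 6 call held under every alternative tried, whereas the day 4 call was lost without either day 1 library or without the first day 4 library (adjusted p up to 0.175). All 8 HCF-2 Fn3nc* libraries lay between 3.66 and 5.13 CPM, below every HCF-2 WT library. By FPKM the lines overlapped, as the second HCF-2 Fn3nc* library of day 2 had 4.28 against 3.18 to 6 in HCF-2 WT cells. HCF-2 WT cells had 3.72 and 3.18 FPKM on day 1 and 4.12 and 4.2 FPKM on day 6. The difference between the lines was -0.96 on day 4 (SE 0.15, adjusted p = 0.00013) and -0.92 on day 6 (SE 0.15, adjusted p = 0.000112). The test of the response from day 2 gave 0.64 (SE 0.21, adjusted p = 0.0396), a call lost in 11 of 14 alternatives, and from day 1 the difference in response was not called.

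IRF3, the factor that RNA and DNA sensors activate, did not change over time in either line by the test. It was higher in HCF-2 Fn3nc* cells on day 4, at 28.69 and 26.22 CPM against 17.20 and 19.43 CPM (log2 difference 0.58, SE 0.09, adjusted p = 0.000139). On day 6 it stood at 29.79 and 30.46 CPM against 18.50 and 21.28 CPM (0.60, SE 0.09, adjusted p = 6.39e-05). The lines did not overlap on these days, and leaving out the first HCF-2 WT library brought the difference just under the fold limit on each (0.49 on day 4 and 0.48 on day 6). STAT2, IRF7 and IRF9, of which STAT2 and IRF9 carry the type I interferon signal into the nucleus, were called in none of the 12 comparisons. IRF7 varied most between duplicates, as on day 2 in HCF-2 WT cells with 2.20 and 1.03 CPM.

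Of the RNA sensors, only IFIH1 was called. IFIH1 encodes MDA5, a sensor of long double-stranded RNA, and had 6.42 and 6.58 CPM on day 1, 6.55 and 6.22 CPM on day 2, 9.84 and 8.26 CPM on day 4 and 10.45 and 8.94 CPM on day 6 in HCF-2 WT cells. The day 6 libraries were above those of days 1 and 2 and overlapped those of day 4, and the change by day 4 was not called. The log2 fold change by day 6 was 0.56 from day 1 (SE 0.15, adjusted p = 0.0124) and 0.58 from day 2 (SE 0.15, adjusted p = 0.0101). Both calls were lost without the first day 6 library, the first also without the first day 1 library (adjusted p up to 0.119) and the second without the second day 2 library (up to 0.104). IFIH1 in HCF-2 Fn3nc* cells ranged from 6.25 to 8.55 CPM, and the difference between the responses was not called. DDX58, which encodes the sensor RIG-I, stayed between 6.78 and 11.05 CPM and DHX58, which encodes LGP2, between 0.15 and 0.972 CPM, with no call for either.

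ISG15 was the only regulator that changed. It encodes a small protein that is coupled to other proteins in the antiviral state, and it moved in opposite directions in the 2 lines. In HCF-2 WT cells it had 1.76 and 2.40 CPM on day 1, 1.95 and 2.15 CPM on day 2, 2.40 and 3.0 CPM on day 4 and 4.39 and 3.82 CPM on day 6. Both day 6 libraries were above all earlier ones (log2 fold change 0.96, SE 0.23, adjusted p = 0.007), a call that was lost without the first library of day 1 or of day 6 (adjusted p up to 0.0753). HCF-2 Fn3nc* cells started at 12.91 and 14.55 CPM and dropped to 4.51 and 5.04 CPM on day 2, 2.14 and 2.13 CPM on day 4 and 2.92 and 3.09 CPM on day 6. The fall by day 6 was 2.23 on the log2 scale, 4.68-fold (log2 fold change -2.23, SE 0.14, adjusted p = 1.16e-06), and the day 1 pair stood clear of all later libraries.

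The difference between the lines in ISG15 was called on days 1 and 2 only. On day 1 the level in HCF-2 Fn3nc* cells was 6.59-fold that in HCF-2 WT cells (log2 difference 2.72, SE 0.17, adjusted p = 8.28e-09) and on day 2 it was 2.33-fold (1.22, SE 0.19, adjusted p = 0.000142). On days 4 and 6 the difference was not called, although both HCF-2 Fn3nc* libraries lay below both HCF-2 WT libraries on each of these days. The responses by day 6 differed by 3.17 from day 1 (SE 0.25, adjusted p = 2.76e-07) and still by 1.67 from day 2 (SE 0.26, adjusted p = 0.000298). The other 5 regulators were called in none of the 12 comparisons. They are USP18, which removes ISG15 from proteins, TRIM25, a ubiquitin ligase that acts with RIG-I, and PARP9, PARP14 and DTX3L, and their log2 fold changes by day 6 lay between -0.14 and 0.28 in HCF-2 WT cells. Reads of USP18 may be shared with near-identical copies elsewhere in the genome, and how the estimate divided them was not tested.

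**Figure D3:**
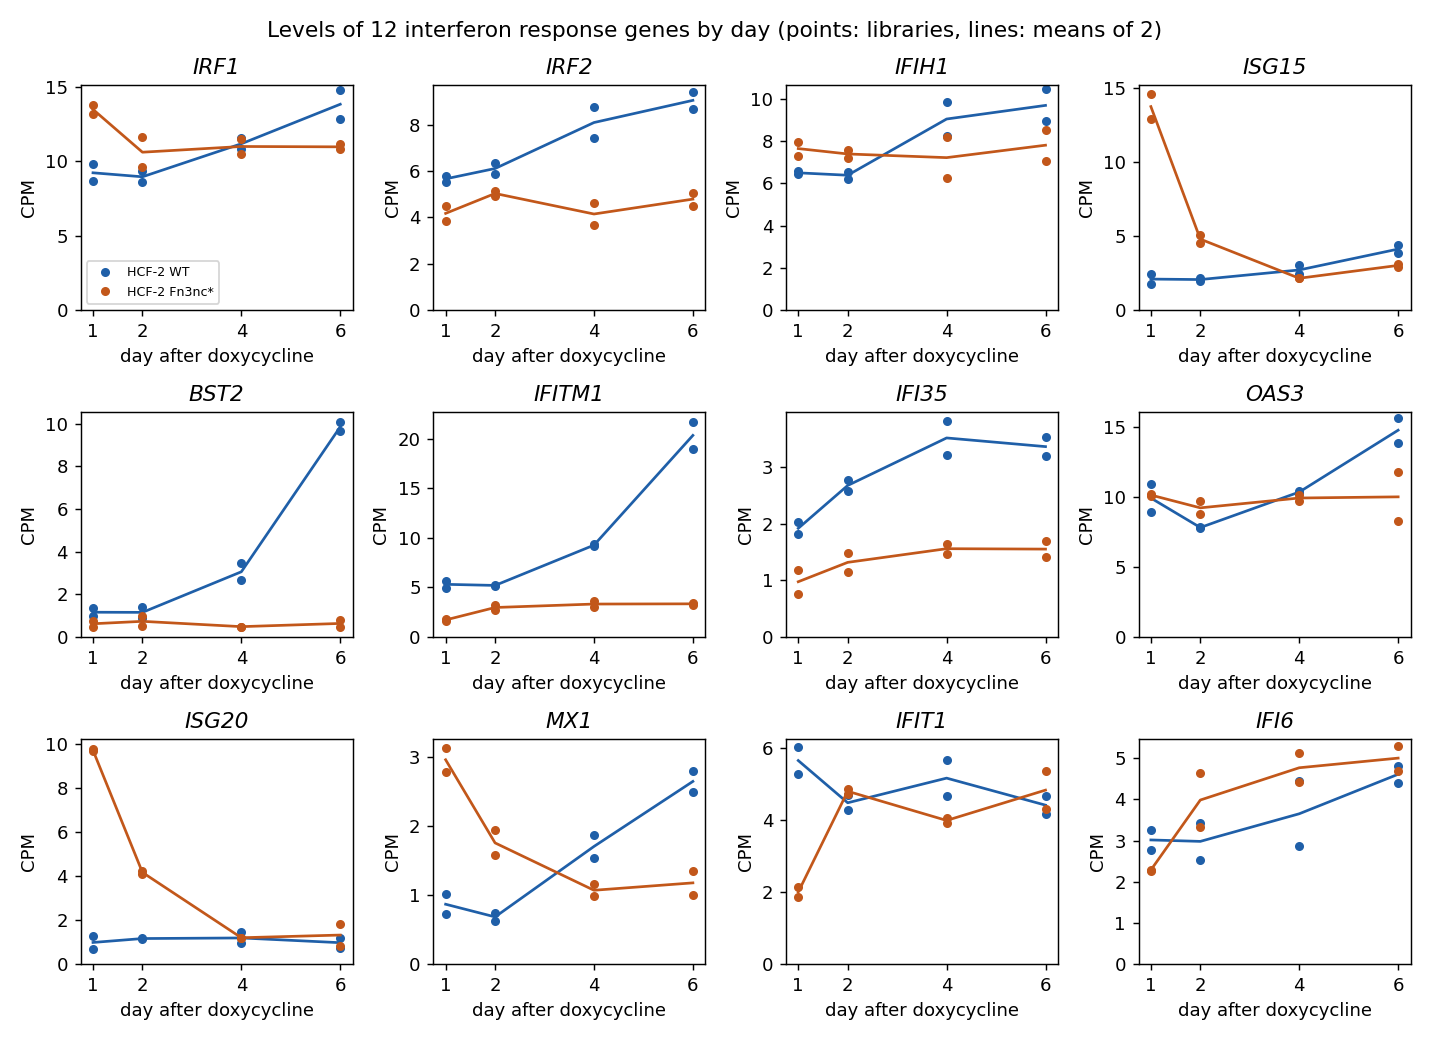
CPM of 12 members by day after doxycycline, with a point for each library and a line through the mean of the 2, in HCF-2 WT (blue) and HCF-2 Fn3nc* (orange) cells. BST2, IFITM1 and MX1 climb in HCF-2 WT cells to 9.64 and 10.06, 21.68 and 19.00, and 2.80 and 2.49 CPM on day 6, while ISG15, ISG20 and MX1 start high and decline in HCF-2 Fn3nc* cells.

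The largest rise of any member in HCF-2 WT cells was that of BST2 (GRCh37 chr19:17513748-17516439, minus strand), which encodes tetherin, a membrane protein that holds budding viruses at the cell surface. It had 0.97 and 1.36 CPM on day 1, 0.91 and 1.40 CPM on day 2, 2.65 and 3.47 CPM on day 4 and 9.64 and 10.06 CPM on day 6. Each of the last 2 days lay above all earlier libraries, with a log2 fold change of 1.40 on day 4 (SE 0.26, adjusted p = 0.0062) and 3.06, or 8.31-fold, on day 6 (SE 0.24, adjusted p = 8.92e-06). The day 4 call was lost without the first day 1 library (adjusted p = 0.0654), and the day 6 call was kept in every alternative. BST2 in HCF-2 Fn3nc* cells did not leave the range of 0.46 to 0.98 CPM. The difference between the lines was -2.64 on day 4 (SE 0.36, adjusted p = 3.7e-05) and -3.94 on day 6 (SE 0.33, adjusted p = 2.24e-07), and the responses by day 6 differed by 3.05 (SE 0.51, adjusted p = 0.000274).

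IFITM1 (GRCh37 chr11:310041-315272, plus strand) encodes a membrane protein that blocks entry of viruses, and it rose in both lines from different levels. In HCF-2 WT cells it had 4.97 and 5.67 CPM on day 1, 5.18 and 5.24 CPM on day 2, 9.16 and 9.39 CPM on day 4 and 21.68 and 19.00 CPM on day 6. In HCF-2 Fn3nc* cells it had 1.85 and 1.60, 2.77 and 3.20, 3.03 and 3.63, and 3.42 and 3.28 CPM on the same days. All HCF-2 Fn3nc* libraries were below all HCF-2 WT libraries, and within this line day 1 was below the later days. The log2 fold change by day 6 was 1.91 in HCF-2 WT (SE 0.13, adjusted p = 5.69e-06) and 0.92 in HCF-2 Fn3nc* cells (SE 0.20, adjusted p = 0.00389), a difference of 0.98 (SE 0.21, adjusted p = 0.0021). Between the lines IFITM1 was lower in HCF-2 Fn3nc* cells by -1.62, -0.80, -1.47 and -2.60 on days 1, 2, 4 and 6 (adjusted p of 0.000865 or less). Its neighbours IFITM2 and IFITM3 encode nearly the same protein, so reads may be divided among the 3 genes with error. IFITM2 reached 7.93 and 8.02 CPM and IFITM3 2.29 and 2.58 CPM on day 6 in HCF-2 WT cells, and neither change was called there.

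IFI35, an interferon-induced leucine zipper protein, was the other member lower in HCF-2 Fn3nc* cells on all 4 days. These 2 members compare with 3.32% of all genes called lower on each of the 4 days. No tested member was higher on all 4, as were 2.71% of all genes. IFI35 had 2.02 and 1.81 CPM in HCF-2 WT and 0.77 and 1.19 CPM in HCF-2 Fn3nc* cells on day 1. On day 6 it had 3.19 and 3.53 CPM against 1.41 and 1.69 CPM, and the lines did not overlap on any day. The log2 differences lay between -1.17 and -0.97, with adjusted p of 0.00513 or less, and leaving out the first HCF-2 Fn3nc* library of day 1 or of day 2 lost the call of that day (adjusted p up to 0.0681). Over time IFI35 rose in HCF-2 WT cells by 0.88 on day 4 (SE 0.21, adjusted p = 0.0193), with 3.21 and 3.82 CPM, and by 0.78 on day 6 (SE 0.21, adjusted p = 0.0126). The day 4 rise was not called without the library that stood apart (adjusted p = 0.0609), nor without either day 1 library, and the day 6 rise was not called without the second library of day 1 or of day 6 (adjusted p up to 0.0898).

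ISG20, which encodes an exonuclease that degrades RNA, had the largest difference between the lines on day 1. It measured 9.74 and 9.65 CPM in HCF-2 Fn3nc* against 0.70 and 1.27 CPM in HCF-2 WT cells, 9.81-fold higher (log2 difference 3.29, SE 0.31, adjusted p = 3.94e-07). It then fell in these cells to 4.09 and 4.23 CPM on day 2, 1.2 and 1.2 CPM on day 4 and 1.82 and 0.82 CPM on day 6. The day 1 pair was above the day 2 pair, and both were above all later libraries (log2 fold change by day 6 -2.89, SE 0.25, adjusted p = 9.81e-06). HCF-2 WT cells stayed between 0.70 and 1.44 CPM. From day 2 the fall in HCF-2 Fn3nc* cells was still called (-1.65, SE 0.27, adjusted p = 0.00715). The responses differed by 2.86 from day 1 (SE 0.49, adjusted p = 0.000308) and by 1.39 from day 2 (SE 0.49, adjusted p = 0.0488), the latter lost in 9 of 14 alternatives.

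MX1 showed the same opposed course as ISG15; it was singled out after its values were seen, because its mean level fell under the limit set for naming. It encodes a GTPase that blocks early steps of viral replication. In HCF-2 WT cells it had 1.01 and 0.73 CPM on day 1, 0.62 and 0.75 CPM on day 2, 1.54 and 1.87 CPM on day 4 and 2.80 and 2.49 CPM on day 6 (log2 fold change by day 6 1.58, SE 0.29, adjusted p = 0.00164). In HCF-2 Fn3nc* cells it had 3.13 and 2.79, 1.58 and 1.94, 0.98 and 1.16, and 1.00 and 1.35 CPM (-1.37, SE 0.25, adjusted p = 0.00136). Days 1 and 6 did not overlap in either line, and the lines changed places between them. MX1 was higher in HCF-2 Fn3nc* cells on day 1 (1.76, SE 0.26, adjusted p = 3.69e-05) and lower on day 6 (-1.17, SE 0.26, adjusted p = 0.00146). The responses by day 6 differed by 2.93 (SE 0.36, adjusted p = 1.98e-05). In HCF-2 Fn3nc* cells MX1 exceeded FPKM 1 only in the day 1 pair (1.43 and 1.09) and the second day 2 library (1.14). In HCF-2 WT cells it did so only in the first day 6 library (1.33). It thus entered the test through libraries where it was high, which favours the called changes.

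IFIT1, which binds viral RNA that lacks the host cap, ran opposite to ISG20 in HCF-2 Fn3nc* cells. It was lowest in the day 1 libraries, at 2.14 and 1.86 CPM, and reached 4.86 and 4.73 CPM on day 2, 3.93 and 4.04 CPM on day 4 and 4.29 and 5.36 CPM on day 6. All later libraries were above the day 1 pair (log2 fold change by day 6 1.23, SE 0.18, adjusted p = 0.000306). HCF-2 WT cells lay between 4.16 and 6.02 CPM without a called change, so the lines differed on day 1 alone by the test (-1.49, SE 0.17, adjusted p = 3.25e-06). The responses by day 6 differed by -1.62 (SE 0.24, adjusted p = 9.02e-05).

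IFI6, a mitochondrial and endoplasmic reticulum protein that limits cell death and flavivirus replication, rose in HCF-2 Fn3nc* cells. It went from 2.30 and 2.28 CPM on day 1 to 4.64 and 3.33 CPM on day 2, 4.42 and 5.12 CPM on day 4 and 4.70 and 5.31 CPM on day 6. Every later library exceeded the day 1 pair (log2 fold change by day 6 1.09, SE 0.20, adjusted p = 0.00114). The day 2 rise of 0.78 (SE 0.20, adjusted p = 0.0119) was lost without either day 1 library or the first day 2 library (adjusted p up to 0.113). IFI6 in HCF-2 WT cells had 2.77 and 3.27 CPM on day 1 and 4.82 and 4.41 CPM on day 6, which was not called (0.59, SE 0.24), and the difference between the responses was not called.

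**Figure D4:**
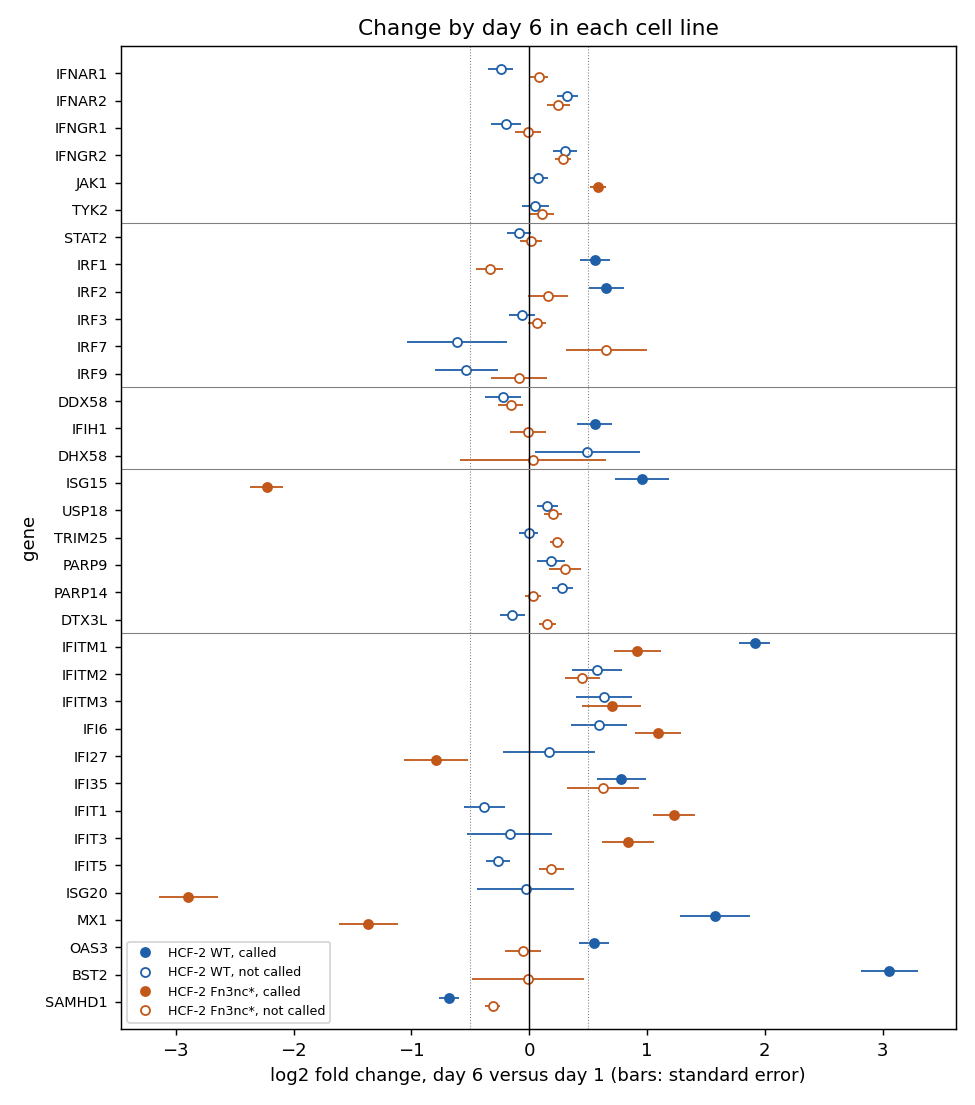
Log2 fold change from day 1 to day 6 of the 35 tested members in HCF-2 WT (blue) and HCF-2 Fn3nc* (orange) cells, with standard errors; filled points were called and dotted lines mark 0.5. BST2 has the largest rise in HCF-2 WT cells (3.06) and lies at 0 in HCF-2 Fn3nc* cells, whereas ISG15 and MX1 have filled points on opposite sides of 0.

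The remaining called effectors lie outside the naming rule and were chosen after their values were seen. OAS3, which makes the 2-5A messenger that activates RNase L, rose in HCF-2 WT cells from 8.93 and 10.93 CPM to 13.87 and 15.67 CPM (log2 fold change 0.55, SE 0.13, adjusted p = 0.00663), a call lost without the first day 1 or the second day 6 library (adjusted p up to 0.0825). SAMHD1, which depletes the nucleotides that viruses need, was the only member called lower on day 6 than on day 1 in HCF-2 WT cells, from 127.47 and 124.96 CPM to 80.79 and 78.90 CPM (-0.68, SE 0.08, adjusted p = 0.000116). The 2 days were far apart, and the call was kept in every alternative. IFIT3, the partner of IFIT1, had 1.28 and 1.25 CPM on day 1, 2.72 and 2.43 CPM on day 4 and 2.19 and 2.46 CPM on day 6 in HCF-2 Fn3nc* cells. The rise by day 4 (0.99, SE 0.22, adjusted p = 0.00385) was kept in every alternative, as was the difference from HCF-2 WT cells on that day, where these had 0.77 and 0.93 CPM (1.58, SE 0.28, adjusted p = 0.000323). IFIT3 exceeded FPKM 1 only in the HCF-2 Fn3nc* libraries of day 4 (1.22 and 1.05) and the second of day 6 (1.08). It thus entered the test only through libraries where it was high, which favours both of these calls. By day 6 the rise was smaller (0.84, SE 0.22, adjusted p = 0.0105), and without either day 1 library or the second day 6 library the call was lost (adjusted p up to 0.0678).

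The calls of IFITM3 (rise) and IFI27 (fall) by day 6 in HCF-2 Fn3nc* cells were lost on leaving out any 1 of the 4 libraries compared. For IFITM3 the adjusted p was 0.0443 and then reached 0.249, and for IFI27 it was 0.0365 and then reached 0.177. IFIT5, whose promoter holds 3 matches of the motif, lay between 43.1 and 62.8 CPM and was called in no comparison between days or lines.

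The 8 untested effectors gathered between 12 and 254 counts each over the 16 libraries. IFI44L, with 223 counts, had 0.04 and 0.00 CPM on day 1 and 0.78 and 0.50 CPM on day 6 in HCF-2 WT, and 0.35 and 0.32 CPM and 1.14 and 0.87 CPM in HCF-2 Fn3nc* cells. OASL had 0.58 and 0.42 CPM on day 1 in HCF-2 Fn3nc* cells and at most 0.33 CPM in any other library. MX2, OAS1, OAS2, SP100 and IFI44L were highest in the HCF-2 WT library that stood apart, with OAS1 at 8 of its 12 counts. No difference in these genes was tested.

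Compared day by day, the 2 lines differed in both directions. On day 1, 5 tested members were higher in HCF-2 Fn3nc* cells (IRF1, ISG15, IFI27, ISG20 and MX1) and 4 lower (IFNGR2, IFITM1, IFI35 and IFIT1), with 18.7% and 15.5% of all genes. On day 2, 4 were higher and 2 lower (9.08% and 7.57% of all genes), and on day 4, 4 and 4 (10.1% and 12.1%). On day 6, 4 were higher (IFNAR1, TYK2, IRF3 and IFIT3) and 8 lower (IFNGR2, IRF2, IFITM1, IFITM2, IFI35, MX1, OAS3 and BST2), with 13.2% and 16.8% of all genes. The 4 higher members are 11.4% and the 8 lower members 22.9% of those tested. The median log2 difference of the members was between -0.07 and 0.10 on the 4 days.

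**Figure D5:**
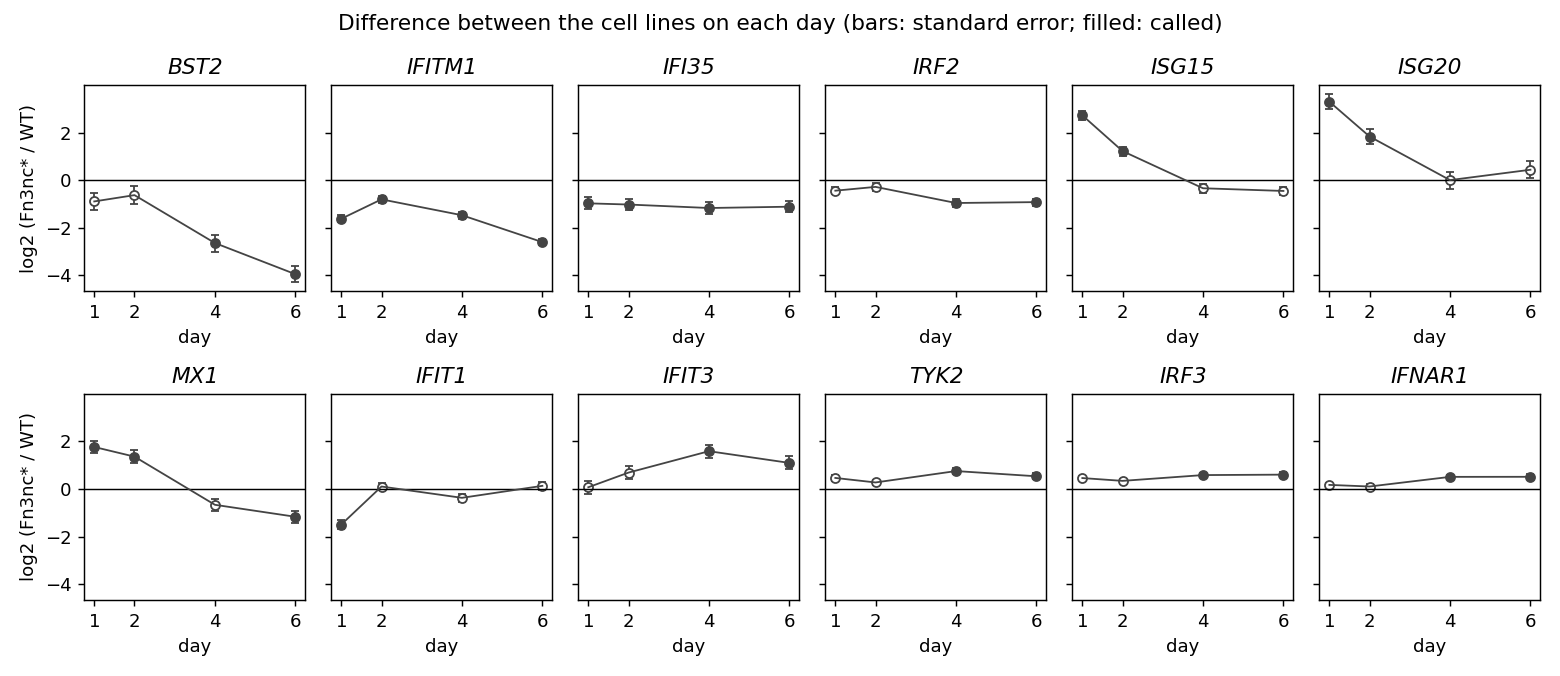
Log2 difference between HCF-2 Fn3nc* and HCF-2 WT cells on each day for 12 members, with standard errors; filled points were called. ISG15, ISG20 and MX1 start above 0 (2.72, 3.29 and 1.76 on day 1) and lose that excess, BST2 and IFITM1 end at -3.94 and -2.60, and IFI35 stays between -1.17 and -0.97.

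The change by day 6 itself differed between the lines for 11 of the 35 tested members when measured from day 1, by the test of the difference at an adjusted p under 0.05. In 7 the change was higher in HCF-2 WT cells (20.0% of all genes were called in that direction) and in 4 lower (16.1%). Measured from day 2, which sets aside the day 1 libraries of HCF-2 Fn3nc* cells, 10 were higher (13.9% of all genes) and 3 lower (10.3%). The 13 calls from day 2 became 8 without either HCF-2 Fn3nc* library of day 6 or without the first HCF-2 WT library of day 6. IRF1, ISG15, IFITM1, ISG20, MX1, OAS3, BST2 and SAMHD1 were called by both measures and in the same direction in each. Both measures share the day 6 libraries.

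Members with the GAAA repeat were among the genes that moved in each line. Of the 16 tested members with the motif, 6 rose and 0 fell by day 6 in HCF-2 WT cells, with a median log2 fold change of 0.42. HCF-2 Fn3nc* cells had 5 rises and 4 falls among them, with a median of 0.09. Of the 12 tested members whose promoters lack it, 2 rose and 1 fell in HCF-2 WT and 1 rose in HCF-2 Fn3nc* cells. Among all genes tested, 13.2% rose and 8.04% fell in HCF-2 WT, and 8.89% and 15.4% in HCF-2 Fn3nc* cells. The counts are given as a description, since the 16 are part of the list and some passed the filter only through their higher libraries.

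Genes of the same pathway outside the 43 are set against the shares of all genes called by day 6, 13.2% higher and 8.04% lower in HCF-2 WT and 8.89% and 15.4% in HCF-2 Fn3nc* cells. Among 56 further interferon-induced genes, 40 were tested, and HCF-2 WT cells showed 6 rises and 1 fall by day 6, a share of rises near that of all genes. Among those that rose were UBE2L6 and UBA7, 2 of the enzymes that act in attaching ISG15, with log2 fold changes of 2.21 (SE 0.24, adjusted p = 5.82e-05) and 1.91 (SE 0.59, adjusted p = 0.0248), and the helicase-like DDX60 (1.19, SE 0.14, adjusted p = 8.61e-05). The rise of UBA7 rests on 4 and 5 counts on day 1 and 19 and 20 on day 6. Within HCF-2 WT cells UBA7 exceeded FPKM 1 only in the second day 6 library (1.06). UBE2L6 had 1.41 and 2.31 CPM on day 1 and 9.60 and 7.86 CPM on day 6. In HCF-2 Fn3nc* cells 8 rose, 20% of the 40 tested against 8.89% of all genes. Another 7 fell, 17.5% against 15.4%, a share near that of all genes. The falls were led by GBP2, a GTPase induced by interferon γ. It fell by 3.83 on the log2 scale (SE 0.41, adjusted p = 3.72e-05) from 4.66 and 3.91 CPM to 0.228 and 0.386 CPM. GBP2 exceeded FPKM 1 only in the day 1 HCF-2 Fn3nc* libraries (1.68 and 1.88). It thus entered the test only through libraries where it was high, which favours a fall from day 1. The median over the 40 was 0.26 in HCF-2 WT and 0.13 in HCF-2 Fn3nc* cells, where all genes had medians of -0.01 and 0.00.

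Of 14 tested among 17 genes that lead from sensors to interferon synthesis, 3 rose (TICAM1, RNF135 and TMEM173) and 1 fell (TBK1) by day 6 in HCF-2 WT cells. In HCF-2 Fn3nc* cells 2 rose and 3 fell. The largest of the falls was in MB21D1, which encodes the DNA sensor cGAS. It had 3.45 and 4.46 CPM on day 1 and 0.36 and 0.19 CPM on day 6 (log2 fold change -3.83, SE 0.34, adjusted p = 1.24e-05), and 0.12 to 0.35 CPM in all HCF-2 WT libraries. The day 1 pair stood clear of all others. MB21D1 exceeded FPKM 1 only in that pair (1.2 and 1.51). It thus entered the test only through libraries where it was high, which favours a fall from day 1. Of 11 tested among 12 genes of feedback control and the interferon λ receptor, 1 rose in HCF-2 WT cells (PIAS3) and 1 fell in HCF-2 Fn3nc* cells (SOCS3, an inhibitor of JAK kinases, -1.19, SE 0.23, adjusted p = 0.00193). Of all genes tested, 13.2% rose and 8.04% fell in HCF-2 WT, and 8.89% and 15.4% in HCF-2 Fn3nc* cells, so nothing is read from counts of 1 to 3 genes in these lists.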

How the data were processed

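The authors prepared poly(A) RNA libraries with the NEXTflex qRNA-seq kit, aligned the single-end reads with STAR to GRCh37 and counted them with RSEM 1.3.0. The use of molecular labels and of strand is not stated in those methods. Overlapping and near-identical genes are therefore uncertain. The deposited table holds expected counts, which RSEM estimates by dividing ambiguous reads, and FPKM values, which the authors derived from them by transcript length and depth.

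Expected counts were rounded, and the test took in the 18925 genes that exceeded FPKM 1 in 1 or more libraries, which held at least 99.6% of the counts of each library. The quasi-likelihood test of edgeR 4.0.16 (R 4.3.3, TMM scaling, Benjamini-Hochberg adjustment over all genes tested) was fitted per line over 8 libraries for days and over all 16 for lines and responses. Calls needed a log2 fold change beyond 0.5 in addition to an adjusted p under 0.05, except for responses, where the p alone decided. CPM values are TMM-scaled. DESeq2 1.42.0, other filters, a replicate block, and leaving out each library were tried as alternatives, that of the HCF-2 WT library with the most genes in every fit having been added after the data were seen. Scripts were tested on simulated data. Python 3.11.15 and matplotlib 3.10.9 drew the figures.

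The 43 members and the further lists were chosen with earlier results of these data known. Genes were named where called, up to 6 per role group in order of the largest absolute log2 fold change, with a mean of at least 2 CPM, and IRF1 and IRF2 in any case. Replicate numbers did not pair the samples. Gene positions come from a GENCODE annotation on GRCh37, whose release may differ from that of the authors. A list of 4 endothelial markers had 3 members in the table.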

Additional observations from a re-analysis of the deposited data

Results flagged for a closer look

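The change by day 6 from day 1 differed between the lines, by the test of that difference (edgeR, log2 scale, HCF-2 WT minus HCF-2 Fn3nc*), in 11 members. The difference was 3.17 for ISG15, 3.05 for BST2, 2.93 for MX1, 2.86 for ISG20, 0.98 for IFITM1, 0.88 for IRF1 and 0.59 for OAS3. It was -1.62 for IFIT1, -0.52 for JAK1, -0.47 for IFIT5 and -0.39 for SAMHD1. The adjusted p ranged from 2.76e-07 for ISG15 to 0.0338 for OAS3. Of the tested members, 20.0% were called higher and 11.4% lower, against 20.0% and 16.1% of all genes. The number of members called was thus no larger than over all genes.

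Measured from day 2, the differences were 3.32 for BST2, 2.52 for MX1, 1.79 for IFITM1, 1.67 for ISG15, 1.39 for ISG20, 0.80 for OAS3, 0.64 for IRF2, 0.58 for IRF1, 0.53 for IFNGR2 and 0.35 for PARP14. They were -1.69 for IRF7, -0.51 for SAMHD1 and -0.41 for IFNAR1, with adjusted p up to 0.0488, that of ISG20. Of the tested members, 28.6% were called higher and 8.57% lower, against 13.9% and 10.3% of all genes.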

How the results depend on the processing

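Of 111 calls of members, 68 were kept under every alternative tried and no value changed sign. Differences in the number of called members beyond 1.5 times arose as follows. The fit with a replicate block gave 0 called members on day 2 in HCF-2 WT cells, in place of 1, and changed no other count by as much; correlations of same-numbered samples across 28 pairs of groups ran from -0.22 to 0.21. DESeq2's Wald test gave 2 in place of 4 on day 4 in HCF-2 WT cells, and 1 in place of 2 from day 2 to day 6 in HCF-2 Fn3nc* cells, where dropping the FPKM filter also gave 1. Without that filter, 14 members in place of 9 differed between the lines on day 1, more genes being tested. DESeq2's size factors, FPKM above 1 in at least 2 libraries and a joint fit of all 16 libraries moved no count by as much. The cause was not tested for the others.

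On leaving out 1 library at a time, the called members of HCF-2 WT cells numbered 0 to 1 (day 2), 1 to 4 (day 4), 7 to 13 (day 6) and 7 to 11 (day 6 from day 2). In HCF-2 Fn3nc* cells they numbered 3 to 6, 8 to 10, 7 to 9 and 1 to 1. Between the lines they numbered 9 to 12, 4 to 6, 7 to 11 and 9 to 11 on days 1, 2, 4 and 6. Responses differed in 9 to 15 from day 1 and 8 to 13 from day 2. The 1 of day 4 arose without the first HCF-2 WT library of day 1, the 2 without the second, and the 3 of HCF-2 Fn3nc* day 2 without its second library of day 1. The 8 from day 2 arose without either HCF-2 Fn3nc* library of day 6 or without the first HCF-2 WT library of day 6. With 1 library left in a group, that library is assumed to vary like the others. Without the HCF-2 WT library that held the most genes, 13 members were called on day 6 from day 1 in HCF-2 WT cells. Low counts limit ISG20, MX1, IFIT3, IRF7 and DHX58, whose mean FPKM was 0.426 to 1.63.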
